A study of Homo sapiens with 30 samples.

Results

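The genes described here are the mitochondrially encoded genes, taken as all genes whose GENCODE 29 symbol starts with MT-. They are 37 of the 60554 genes counted, all on chromosome M, and comprise 13 mRNA genes, 2 rRNA genes and 22 tRNA genes. The cells were Loucy, PER-117, PEER, TALL-1 and MOLT-16, 5 human lines established from T-cell acute lymphoblastic leukaemia. For 48 h they received either DMSO, the vehicle, or 1 µM of decitabine, which is built into DNA in place of cytidine and depletes the enzymes that methylate it. Each of the 10 groups has 3 libraries, which makes 30. Every group is an established leukaemia line in culture, with no normal T cells beside it, and nothing in the labels ties the libraries of a group to separate cultures. The spread on which p-values rest is the one between these libraries and may be technical.

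Mitochondrial DNA is a small circle read on both of its strands. Most of its genes, among them all but 1 of the mRNA genes and both rRNA genes, are read in one direction and are called heavy-strand genes here. The others, MT-ND6 and a set of tRNA genes, are read in the other direction and are called light-strand genes. Each direction is transcribed by the mitochondrial RNA polymerase POLRMT as a long transcript that spans nearly the whole circle, and tRNAs are cut out of it, which frees the mRNAs and rRNAs between them. The light-strand transcript therefore also carries long stretches opposite to the heavy-strand genes, which have no gene of their own and are normally removed by the mitochondrial degradosome, made of the helicase SUPV3L1 and the RNase PNPT1. The proteins made from the 13 mRNAs are subunits of respiratory chain complexes I, III and IV and of ATP synthase.

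The deposited counts keep both strands apart. Of the 37 genes, 28 lie on the plus strand of the annotation (12 mRNA, 2 rRNA and 14 tRNA genes, the heavy-strand genes) and 9 on the minus strand (MT-ND6 and 8 tRNA genes, the light-strand genes). Reads on a gene's own strand are called gene-strand reads, and reads over a gene on the other strand opposite-strand reads. Opposite-strand reads over heavy-strand genes are thus light-strand RNA, and opposite-strand reads over light-strand genes are heavy-strand RNA. The kit sequences the 3′ ends of RNA primed on stretches of A, so a read tells where a primed end was and not how much of a gene was transcribed.

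The 3′ ends of the genes on which the results turn are shown first, since the kit reads near the 3′ ends of RNA. Those need not be the annotated ends of the genes. Each is the last 60 bases of the gene on its own strand, from GENCODE 29 on GRCh38, 5′ to 3′. Capitals mark the final codon, or the 1 or 2 bases left over after the last whole codon. MT-ND6, a complex I subunit, is the only light-strand mRNA gene (chrM:14149-14673, minus strand), and MT-ND5, a complex I subunit as well, lies on the plus strand at chrM:12337-14148, so that their 3′ ends meet without a gap. MT-CYB, the mitochondrially encoded subunit of complex III, is at chrM:14747-15887, and MT-ND1 and MT-ND4, both of complex I, are at chrM:3307-4262 and chrM:10760-12137.
MT-ND6: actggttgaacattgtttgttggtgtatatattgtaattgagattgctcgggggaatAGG
MT-ND5: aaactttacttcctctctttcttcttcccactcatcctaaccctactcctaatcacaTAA
MT-CYB: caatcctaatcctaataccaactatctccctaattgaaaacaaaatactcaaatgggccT
MT-ND1: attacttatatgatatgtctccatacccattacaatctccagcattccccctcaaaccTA
MT-ND4: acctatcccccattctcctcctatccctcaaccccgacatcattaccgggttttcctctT

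MT-ND6 and MT-ND5 had a whole number of codons, 175 and 604. MT-CYB and MT-ND4 ended 1 base, and MT-ND1 2 bases, past their last whole codon, and such mitochondrial stop codons are known to be completed when the poly(A) tail is added. Base composition separated the strands: MT-ND6 was 35.6% G and 7.05% C, while the 12 heavy-strand mRNA genes were 6.28% to 16.2% G and 29.5% to 36.0% C. The longest run of A on the RNA strand was 3 bases in MT-ND6 and 3 to 8 bases in the heavy-strand mRNA genes. On the opposite strand of the heavy-strand mRNA genes it was 2 to 7 bases.

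Of the light-strand tRNA genes, MT-TE (tRNA for glutamate, chrM:14674-14742) and MT-TP (tRNA for proline, chrM:15956-16023) had the largest log2 changes of gene-strand reads in PER-117. Both are given whole, with MT-TV (tRNA for valine, chrM:1602-1670), which lies on the heavy strand between the rRNA genes and changed in a different line. Capitals mark the longest runs of A.
MT-TE: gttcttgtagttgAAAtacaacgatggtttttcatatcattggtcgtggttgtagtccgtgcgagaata
MT-TP: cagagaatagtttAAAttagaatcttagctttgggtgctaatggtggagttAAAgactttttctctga
MT-TV: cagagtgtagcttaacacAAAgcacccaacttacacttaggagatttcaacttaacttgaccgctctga

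Libraries held 2.20 M to 15.4 M gene-strand reads, with the deepest in Loucy (10.2 M to 15.4 M) and PER-117 (9.93 M to 15.0 M). Mitochondrial genes took 3.84% to 6.46% of them. Of 9 T-lineage marker genes, 8 or 9 had any reads in every group, with a summed level of 335 to 2669 CPM (counts scaled by library size, TMM factors included). Single markers were near 0 in some lines, with medians in PER-117 of 0.446 CPM for CD2, 0.126 CPM for CD5 and 0 for PTCRA. In PER-117 the T-lineage sum was 560 to 577 CPM with DMSO and 335 to 352 CPM with decitabine. It was lower without overlap in TALL-1 (2234 to 2471, then 1559 to 1767 CPM) and PEER (1439 to 1634, then 1271 to 1368 CPM) too. The same held in Loucy (978.5 to 1069, then 851.7 to 920.4 CPM), while the MOLT-16 groups overlapped (1945 to 2669, then 1652 to 1948 CPM). In Loucy, 4 myeloid markers summed to 4.47 to 6.94 CPM with DMSO and 25.2 to 26.9 CPM with decitabine, while 4 B-cell markers summed to 39.3 to 55.8 CPM and 59.6 to 64.3 CPM. In the other lines the B-cell sum was at most 40.4 CPM and the myeloid sum at most 8.24 CPM. Epithelial and stromal markers summed to at most 13.97 CPM and erythroid markers to at most 1.07 CPM, with ALAS2 at 0 in every library. Their part in the results was not tested. In bulk RNA, fewer cells of a kind and less RNA per cell cannot be told apart. In 3 DMSO libraries, genes restricted to another line stood well above 0. Genes restricted to PEER reached a median of 19.3% of their PEER level in MOLT-16 DMSO replicate 3 and 14% in TALL-1 DMSO replicate 3 (13 of 13 genes detected in each), and genes restricted to TALL-1 reached 18% in PEER DMSO replicate 2 (3 genes). In the other 12 DMSO libraries the highest such value was 2.26%. The decitabine libraries served to choose the restricted genes and could not be checked in this way. None of the 3 DMSO libraries with such transcripts is from Loucy or PER-117. Results in PEER, TALL-1 and MOLT-16 are given with these libraries and, where it matters, without them.

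Light-strand RNA was lower with decitabine in PER-117 and in Loucy, both for MT-ND6 and for the RNA opposite to the heavy-strand genes, while no heavy-strand mRNA was called lower in either line. In PER-117, light-strand reads (light-strand genes plus the opposite strand of heavy-strand genes) numbered 158, 145.5 and 144.9 per 1000 heavy-strand mRNA reads with DMSO, and 33.1, 28.1 and 33.8 with decitabine, 4.72-fold lower on the ratio of the means. In Loucy they numbered 68.2, 59.8 and 40.6 with DMSO and 26.0, 29.7 and 29.6 with decitabine, 1.98-fold lower. In both lines every decitabine library was below every DMSO library. In the other lines the groups overlapped: 14.8 to 22.0 against 16.6 to 26.9 in PEER, 66.7 to 91.8 against 68.5 to 74.1 in TALL-1, and 34.4 to 78.4 against 32.3 to 59.7 in MOLT-16, decitabine given second. In TALL-1 the overlap rested on DMSO replicate 3 (66.7), which held PEER transcripts. DMSO replicates 1 and 2, at 91.8 and 88.75, lay above every decitabine library of that line. Without the light-strand genes, and per 1000 reads on all heavy-strand genes, the opposite strand of heavy-strand genes was apart in TALL-1 too, at 31.6 to 39.7 with DMSO and 29.3 to 29.9 with decitabine, 1.24-fold lower. On that measure PER-117 was 4.56-fold and Loucy 1.73-fold lower, and the groups overlapped in PEER and MOLT-16. These are sums over chosen genes and carry no test. A read that touches genes on both strands counts on each of them, which concerns 11235 reads over MT-ND5 at its junction with MT-ND6. Other junctions hold such reads too, among them 8751 over MT-TQ, 8385 over MT-TI, 5495 over MT-TP and 5366 over MT-CYB.

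**Figure D1:**
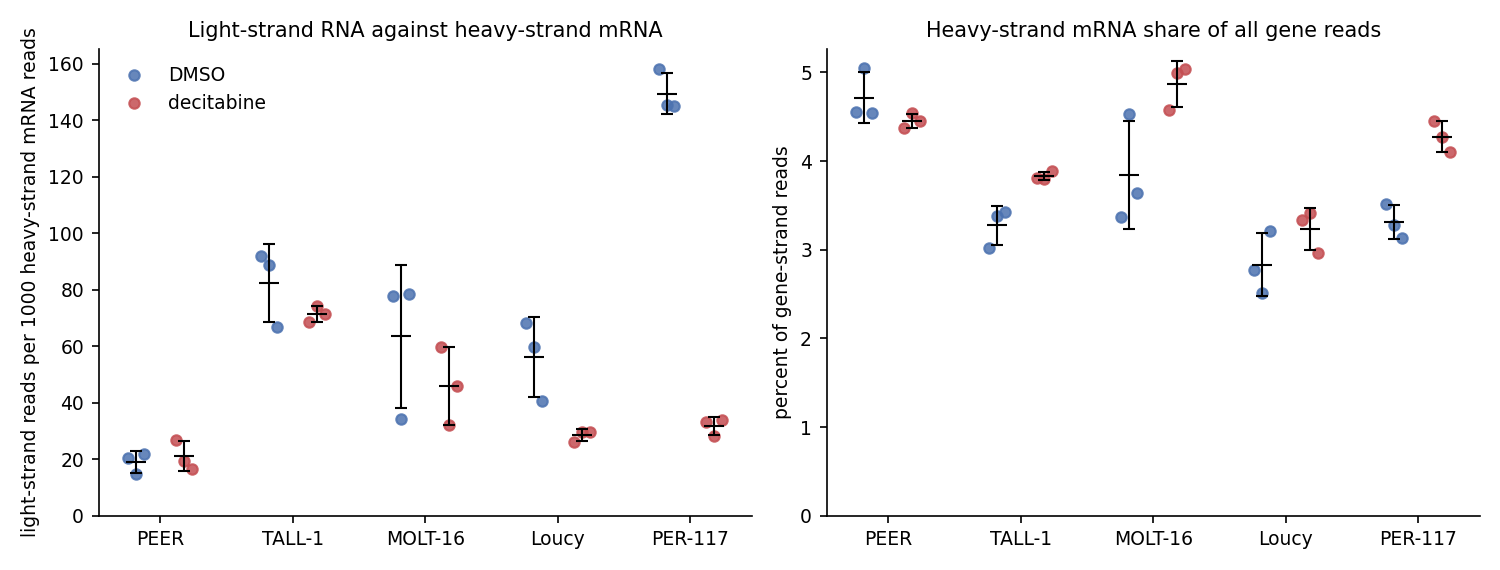
Left, light-strand reads per 1000 heavy-strand mRNA reads in each library; right, the percentage of gene-strand reads on the 12 heavy-strand mRNA genes; points are libraries, black bars the mean and SD of 3 libraries. On the left, the PER-117 libraries lie at 144.9 to 158 with DMSO and at 28.1 to 33.8 with decitabine, and the Loucy libraries at 40.6 to 68.2 and at 26.0 to 29.7.

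MT-ND6 carried this on its own strand. In PER-117 it stood at 744, 619 and 733 CPM with DMSO and at 156, 139 and 167 CPM with decitabine, a log2 change of -2.18 ± 0.27 (SE; edgeR quasi-likelihood adjusted p = 1.73e-06). In Loucy it stood at 111, 73.6 and 50.3 CPM with DMSO and at 25.4, 39.7 and 35.4 CPM with decitabine, a log2 change of -1.22 ± 0.27 (edgeR adjusted p = 0.00195). The groups did not overlap in either line, and both calls held when any single library of the line was left out. With both strands counted together, the call in Loucy was lost (-0.36, adjusted p = 0.155). In PEER the levels were 80, 54.9 and 86.6 CPM with DMSO and 83.0, 65.7 and 49.5 CPM with decitabine. In TALL-1 they were 204, 207 and 137 CPM, then 189, 182 and 173 CPM, and in MOLT-16 184, 114 and 225 CPM, then 185, 88.4 and 175 CPM. Treated and untreated libraries overlapped in these 3 lines, with log2 changes of -0.14 ± 0.27, -0.01 ± 0.27 and -0.22 ± 0.27 (edgeR adjusted p = 0.839, 1 and 0.696). The test of the difference itself, on 4 degrees of freedom between the 5 responses, gave an adjusted p of 0.000533 for MT-ND6 in edgeR.

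The opposite strand of the heavy-strand genes moved with MT-ND6. Over MT-ND5, the counts do not tell RNA that runs on from MT-ND6 apart from separate light-strand RNA. Opposite-strand reads over MT-ND5, which lies 3′ to 3′ against MT-ND6, stood at 2289, 2162 and 1982 CPM in untreated PER-117 and at 536, 463 and 564 CPM with decitabine, a log2 change of -2.04 ± 0.21 (edgeR adjusted p = 1.24e-08). In Loucy they stood at 442, 313 and 293 CPM with DMSO and at 178, 180 and 172 CPM with decitabine (-0.98 ± 0.21, edgeR adjusted p = 0.002). Both falls were larger than the spread between libraries. In PEER the values were 181, 144 and 176 CPM, then 207, 147 and 135 CPM. In TALL-1 they were 514, 542 and 468 CPM, then 493, 442 and 467 CPM, and in MOLT-16 641, 376 and 658 CPM, then 603, 330 and 571 CPM. The groups overlapped in all 3.

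Over MT-CYB the opposite strand gave the change with the smallest adjusted p of any mitochondrial gene. It stood at 838, 795 and 756 CPM in untreated PER-117 and at 187, 144 and 193 CPM with decitabine, a log2 change of -2.19 ± 0.19 (edgeR adjusted p = 2.94e-10). In Loucy it stood at 126, 113 and 101 CPM, then 59.1, 70.0 and 72.7 CPM (-0.75 ± 0.18, edgeR adjusted p = 0.00852), a call lost without Loucy decitabine replicate 1 (adjusted p up to 0.0711) or without Loucy DMSO replicate 1. In PEER it stood at 90.5, 76.0 and 115 CPM, then 116, 97.8 and 84.7 CPM. TALL-1 had 242, 291 and 202 CPM, then 228, 234 and 237 CPM, and MOLT-16 had 222, 165 and 230 CPM, then 195, 139 and 190 CPM, again with overlap.

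Over MT-ND1, near the start of the heavy-strand transcript, the opposite strand stood at 419, 350 and 296 CPM in untreated PER-117 and at 146, 143 and 134 CPM with decitabine (-1.33 ± 0.22, edgeR adjusted p = 5.79e-05). Loucy had 342, 270 and 252 CPM, then 162, 163 and 120 CPM (-0.96 ± 0.22, edgeR adjusted p = 0.00405). PEER had 71.2, 83.8 and 66.6 CPM, then 135, 95.0 and 69.4 CPM. TALL-1 had 459, 601 and 337 CPM, then 336, 393 and 337 CPM. MOLT-16 had 641, 453 and 687 CPM, then 685, 475 and 523 CPM. As for MT-ND6 and the opposite strand of MT-ND5 and MT-CYB, the treated and untreated libraries were apart in PER-117 and Loucy and overlapped in PEER, TALL-1 and MOLT-16. In TALL-1 each of these overlaps rested on DMSO replicate 3, which held PEER transcripts. Without it, the decitabine libraries lay below the DMSO libraries on each of these measures. MT-ND6 in TALL-1 gave -0.18 without the 3 libraries holding transcripts of another line (edgeR adjusted p = 0.696). With any single library left out, 0 mitochondrial genes were called there on the opposite strand.

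**Figure D2:**
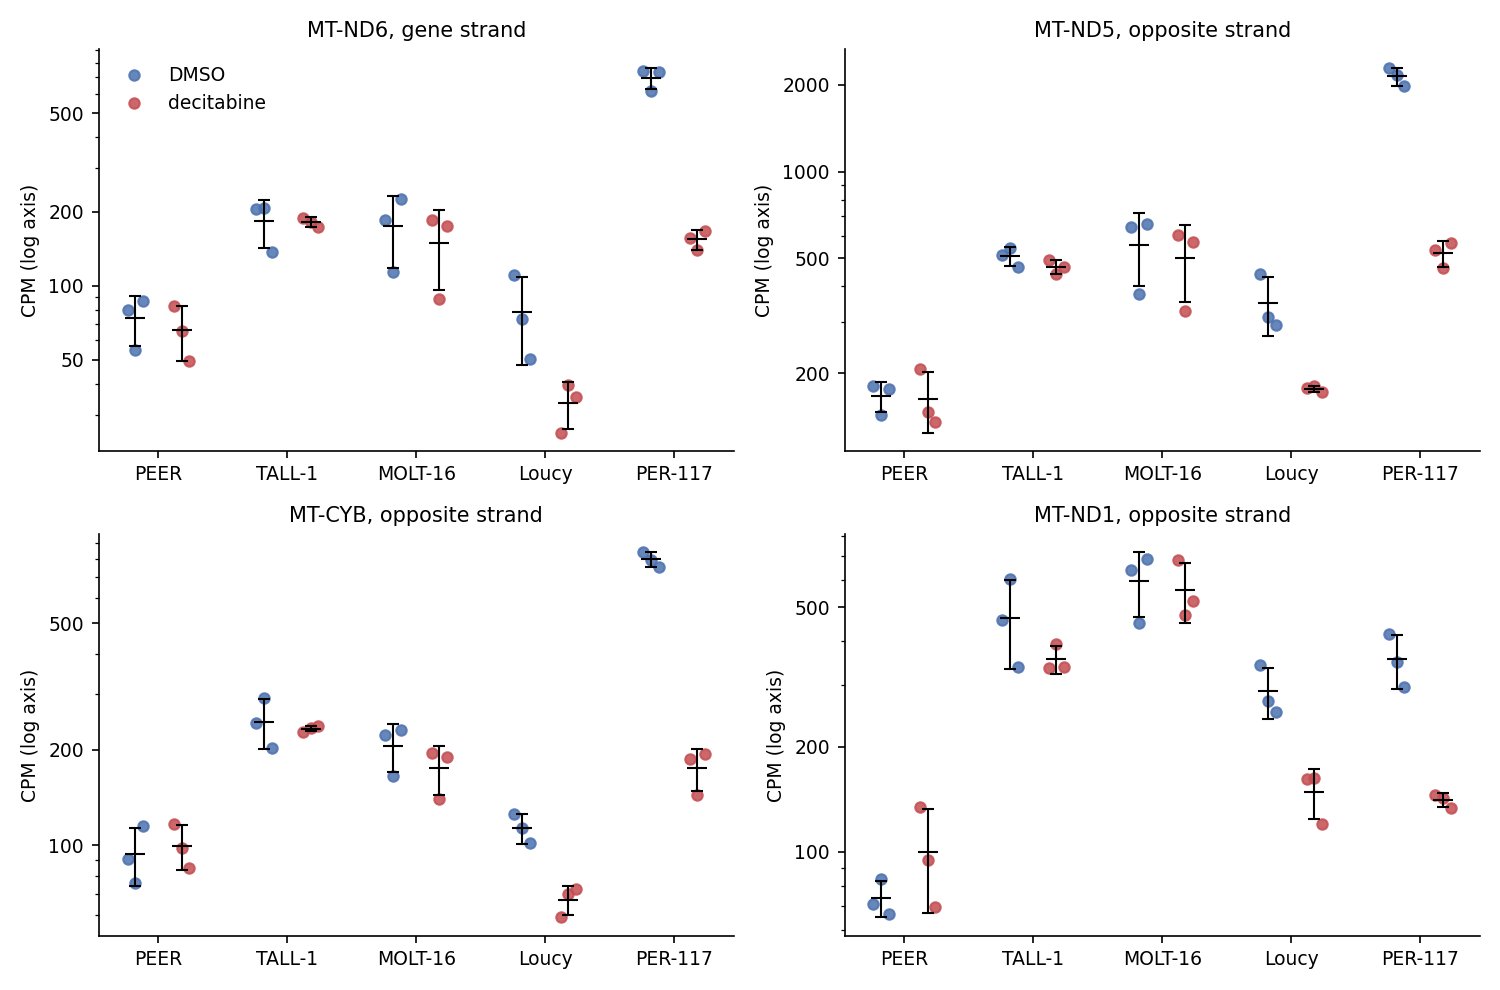
Level of light-strand RNA over 4 genes in CPM (log axis) in each library: MT-ND6 on its own strand and the opposite strand of MT-ND5, MT-CYB and MT-ND1. Points are libraries, black bars the mean and SD of 3. In PER-117 and Loucy all decitabine libraries lie below all DMSO libraries in the 4 panels, with MT-ND6 in PER-117 at 619 to 744 CPM and then 139 to 167 CPM.

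Counted over the whole set, 28 mitochondrial genes had enough opposite-strand reads to be tested (21 heavy-strand and 7 light-strand genes), among 2994 features. In PER-117 the opposite strand fell for 12 of the 21 heavy-strand genes and rose for 0, and in Loucy it fell for 9 and rose for 1. Of all features 1.47% were called lower and 3.87% higher in PER-117, and 0.935% lower and 4.74% higher in Loucy. The median log2 change of the 21 was -1.33 in PER-117 and -0.83 in Loucy, against 0.05 over all features in each line. In PER-117 the falls covered 11 of the 12 heavy-strand mRNA genes and MT-RNR1. They were -2.31 ± 0.23 for MT-ND4, -1.94 ± 0.22 for MT-CO1, -1.93 ± 0.24 for MT-ND4L, -1.66 ± 0.26 for MT-ATP6, -1.51 ± 0.24 for MT-CO3, -1.50 ± 0.24 for MT-ND2, -1.33 ± 0.25 for MT-ND3 and -1.32 ± 0.28 for MT-CO2. The exception among the mRNA genes was MT-ATP8, at -0.83 ± 0.46 (edgeR adjusted p = 0.387), and MT-RNR1, at -1.64 ± 0.50 (edgeR adjusted p = 0.044), lost its call without any 1 of the 6 libraries of the line. Over MT-CO2 the groups overlapped in PER-117, at 202.5, 169.7 and 76.8 CPM with DMSO and 81.8, 60.04 and 37.9 CPM with decitabine.

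In Loucy the opposite strand of MT-ND4 fell by 1.18 ± 0.23 on the log2 scale (edgeR adjusted p = 0.000811) and that of MT-CO1 by 1.00 ± 0.22 (edgeR adjusted p = 0.00341). MT-ND3 and MT-ND4L fell by 0.97 ± 0.26 and 0.97 ± 0.24, MT-ND2 by 0.91 ± 0.25 and MT-CO3 by 0.81 ± 0.24. The calls for MT-ND1, MT-CO1, MT-ND4 and MT-ND5 held without any single library of the line. The number of mitochondrial genes called on the opposite strand in Loucy, 12, became 4 without decitabine replicate 1, 7 without decitabine replicate 3 and 5 without DMSO replicate 1, all 4, 6 of the 7 and all 5 being lower. The 1 heavy-strand gene whose opposite strand rose was MT-RNR2 (1.62 ± 0.50, edgeR adjusted p = 0.0485), which had 424 opposite-strand reads over all libraries against 2095502 on its own strand. That call was lost without any 1 of the 6 libraries of the line, in DESeq2 and with scaling from the opposite-strand counts (adjusted p up to 0.175).

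In the other 3 lines the opposite strand of heavy-strand genes was called for none of the 21. At an unadjusted p under 0.05 in edgeR, 5 of all 28 mitochondrial genes tested passed in PEER, 2 in TALL-1 and 5 in MOLT-16, against 20 in Loucy and 22 in PER-117. The share of all features at that unadjusted threshold was not computed, so these counts have no background beside them. Background calls on the opposite strand, at an adjusted p under 0.05, were 0.668% higher and 0.0334% lower in PEER, 3.51% and 1.67% in TALL-1, and 0.768% and 0.234% in MOLT-16. Without MOLT-16 DMSO replicate 3, 1 mitochondrial gene was called lower in MOLT-16. Without a call, the groups did not overlap over MT-CO2 in TALL-1 (109 to 133.5 CPM with DMSO, 98.9 to 103 with decitabine), over MT-ND4L in TALL-1 (17.2 to 22.5 and 15.7 to 16.3 CPM) and over MT-ATP6 in PEER (2.52 to 2.89 and 3.88 to 7.16 CPM). A call missed in these lines does not show that light-strand RNA was the same there, and most of their libraries were shallower.

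Opposite-strand reads over light-strand genes, which are heavy-strand RNA, went the other way for part of the 7 genes tested. In PER-117 they rose over MT-ND6, from 53.7, 57.5 and 55.8 CPM to 108, 99.3 and 92.7 CPM (0.84 ± 0.16, edgeR adjusted p = 0.000583), over MT-TY, the tRNA for tyrosine, from 10.8, 11.0 and 13.5 CPM to 30.4, 24.9 and 25.7 CPM (1.20 ± 0.23), and over MT-TE, from 6.25, 4.69 and 4.63 CPM to 11.5, 10.8 and 9.67 CPM (1.04 ± 0.27). None of these groups overlapped, and the call for MT-TE was lost without each of 3 single libraries. The calls were 3 of 7 genes, and 2 of the 7 had a log2 change below 0 (lowest -0.26, median 0.78). In Loucy too, 2 of the 7 were below 0 (lowest -0.47, median 0.22). Of all features, 3.87% were called higher in PER-117 and 4.74% in Loucy. In Loucy the opposite strand rose over MT-ND6 (0.55 ± 0.16, edgeR adjusted p = 0.0356) and over MT-TE (0.84 ± 0.24, edgeR adjusted p = 0.0297, with overlapping groups), 2 of the 7 light-strand genes. In PEER it rose over MT-TE (1.11 ± 0.28, edgeR adjusted p = 0.0414). The treated libraries were above the untreated ones over MT-ND6 in all 5 lines, with 0.42, 0.35 and 0.59 on the log2 scale and no call in PEER, TALL-1 and MOLT-16. The calls in Loucy and PEER were lost without 4 to 6 of the single libraries of the line, and that in PEER was 0.95 (edgeR adjusted p = 0.108) without the 3 libraries named above.

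Strand balance was then tested within each library, as the ratio of opposite-strand to gene-strand reads of a gene, which no scaling between libraries can alter. In PER-117 the ratio changed for 18 of 26 mitochondrial genes with enough reads on both strands, falling for 12 of 19 heavy-strand genes and rising for 6 of 7 light-strand genes, which is a shift away from light-strand RNA on both kinds of gene. Background calls were 5.38% lower and 4.3% higher. The ratio fell by 2.98 ± 0.35 on the log2 scale for MT-ND4, by 2.87 ± 0.30 for MT-CYB, by 2.51 ± 0.31 for MT-ND5 and by 2.41 ± 0.33 for MT-CO1, and rose by 3.02 ± 0.34 for MT-ND6, 2.74 ± 0.40 for MT-TE, 2.49 ± 0.26 for MT-TY and 2.36 ± 0.39 for MT-TC, the tRNA for cysteine. The smallest edgeR adjusted p among these was 1.17e-08, for MT-CYB. In Loucy it changed for 14 of 26, falling for 8 heavy-strand genes and rising for 4 light-strand genes (MT-ND6 by 1.73 ± 0.34, MT-TC by 1.59 ± 0.36, MT-TE by 1.58 ± 0.40 and MT-TY by 1.11 ± 0.25) and for both rRNA genes, with background calls of 5.84% lower and 6.87% higher. The Loucy count became 8 without DMSO replicate 1 and 9 without DMSO replicate 2.

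In PEER, TALL-1 and MOLT-16 the ratio was called for 0 of 26 genes in edgeR, with 5, 1 and 7 genes at an unadjusted p under 0.05. For that unadjusted threshold the share over all genes was not computed. Background calls, at an adjusted p under 0.05, were 0.859% higher and 0.916% lower in PEER, 3.55% and 1.95% in TALL-1, and 0.573% and 0.859% in MOLT-16. In MOLT-16 all 19 heavy-strand genes had a log2 change of the ratio below 0, from -1.17 to -0.14. Without the 3 libraries holding transcripts of another line, 1 gene was called in PEER and 2 in MOLT-16, all lower.

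**Figure D3:**
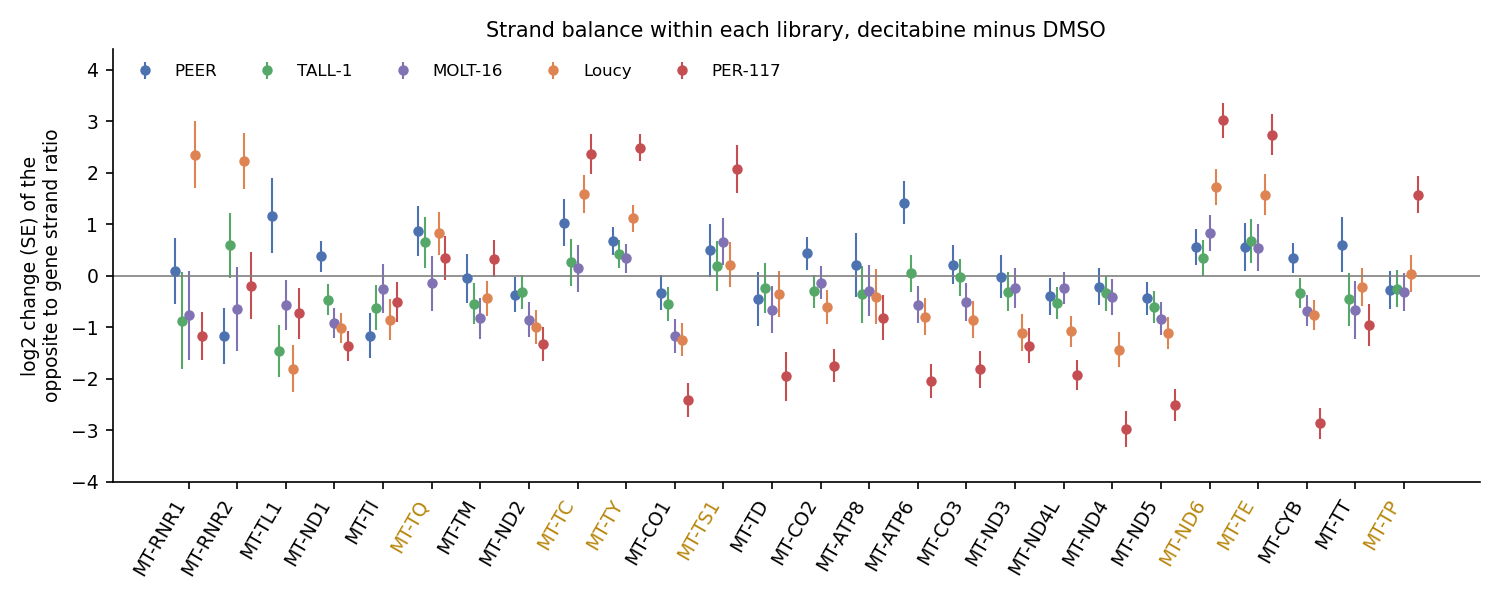
Log2 change with decitabine of the ratio of opposite-strand to gene-strand reads (points, with SE bars) for the 26 genes tested, in order along the chromosome, in each line; light-strand genes are named in dark yellow. In PER-117 light-strand genes lie up to 3.02 and heavy-strand genes down to -2.98.

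The strands differed in how clean they were. MT-RNR2 had 0.0202% of its reads on the opposite strand, MT-ATP6 0.193% and MT-CO3 0.434%, so reads assigned to the wrong strand can be no more frequent than this over these genes. MT-ND5 had 57.2% of its reads on the opposite strand (20.1% to 83.2% by library), MT-ND1 22.2% and MT-CYB 7.47%. MT-ND5 opposite-strand reads numbered 133757 over all libraries, MT-ND1 62717 and MT-CYB 50941, the 3 largest counts.

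Heavy-strand mRNAs as a group took a larger share of gene reads with decitabine in 3 lines. Their share went from 3.31% ± 0.19 to 4.28% ± 0.18 (SD, n = 3) in PER-117, from 3.28% ± 0.22 to 3.83% ± 0.05 in TALL-1 and from 3.85% ± 0.61 to 4.87% ± 0.26 in MOLT-16, with groups that did not overlap. In Loucy it went from 2.83% ± 0.36 to 3.24% ± 0.24 with overlap, and in PEER from 4.71% ± 0.29 to 4.46% ± 0.08, each decitabine library just below each DMSO library. No test was made of these sums. Gene by gene, 31 mitochondrial genes passed the filter on the gene strand, all 15 mRNA and rRNA genes and 16 tRNA genes, among 15081 genes. Called higher or lower were 2 and 0 in PEER, 3 and 0 in TALL-1, 2 and 0 in MOLT-16, 0 and 5 in Loucy, and 3 and 8 in PER-117.

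Background calls over all genes on the gene strand were 3.54% higher and 0.961% lower in PEER, 6.74% and 6.12% in TALL-1, 2.19% and 1.01% in MOLT-16, 10.6% and 4.13% in Loucy, and 8.67% and 3.16% in PER-117. Lower calls fell on the light-strand genes in the last 2 lines: 6 of 8 in PER-117, with a median log2 change of -1.58, and 3 of 8 in Loucy, with a median of -0.73, against 2 of 23 heavy-strand genes in each and medians over all genes of 0.05 and 0.03. All 8 light-strand genes had a log2 change below 0 in both lines.

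**Figure D4:**
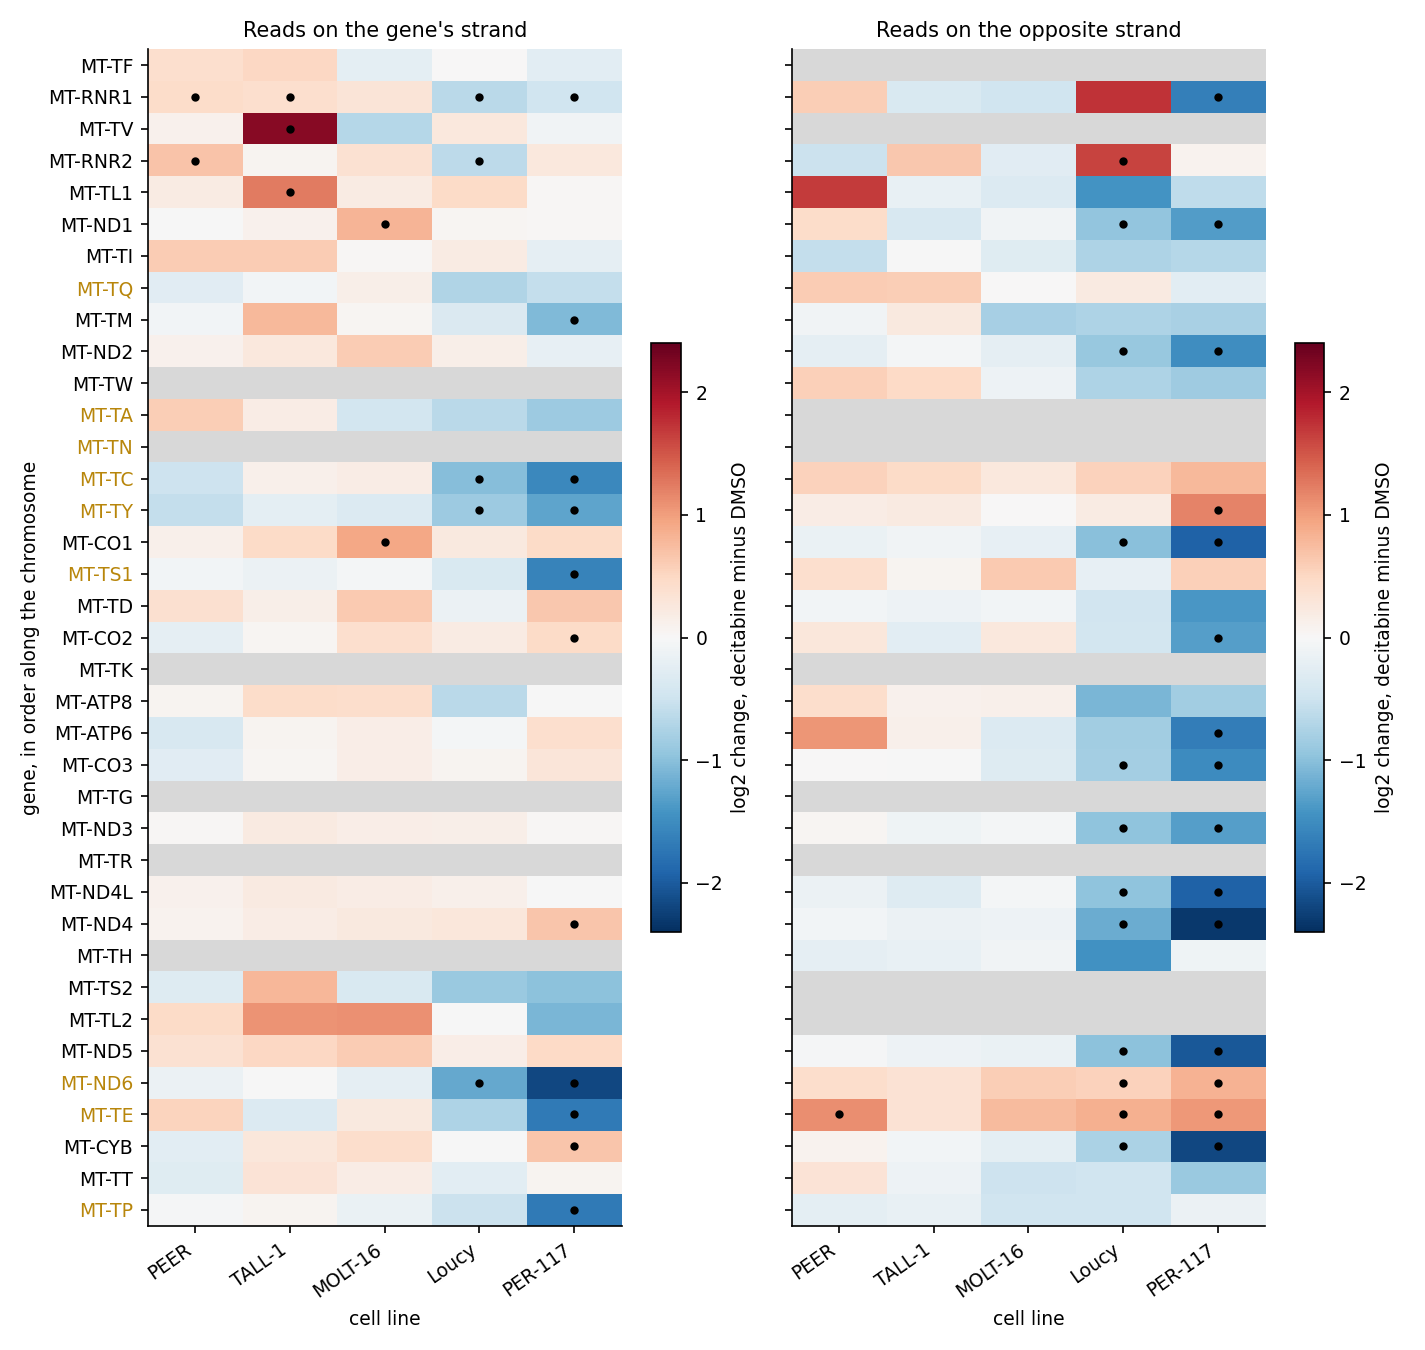
Log2 change with decitabine of each mitochondrial gene (rows, in order along the chromosome, light-strand genes named in dark yellow) in each line (columns), for reads on the gene's strand (left) and on the opposite strand (right); dots mark adjusted p under 0.05 and grey cells were not tested. In PER-117 the 6 light-strand genes called on the left are all lower, and 12 heavy-strand genes called on the right are all lower.

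Among complex III and complex I mRNAs, MT-CYB rose in PER-117 from 2224, 2191 and 2415 CPM to 3591, 3537 and 3707 CPM, a log2 change of 0.67 ± 0.13 (edgeR adjusted p = 0.000458). This was the heavy-strand mRNA with the smallest adjusted p in any line, and the opposite strand over the same gene fell. In PEER MT-CYB stood at 3815, 4443 and 4081 CPM, then 3456, 3590 and 3321 CPM (-0.25 ± 0.13, adjusted p = 0.285). In TALL-1 it stood at 2333, 2607 and 2803 CPM, then 2943, 3212 and 3228 CPM (0.28 ± 0.13, adjusted p = 0.15), and in MOLT-16 at 2420, 3520 and 2714 CPM, then 3704, 4059 and 3848 CPM (0.42 ± 0.13, adjusted p = 0.0582). The groups did not overlap in these 3 lines, and edgeR called none of them. In Loucy MT-CYB stood at 1660, 1576 and 2081 CPM, then 1799, 1823 and 1694 CPM, with a mean of 1772 CPM in both groups.

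For the complex I mRNAs on the heavy strand the log2 changes are given in the order PEER, TALL-1, MOLT-16, Loucy, PER-117. MT-ND1 gave -0.01, 0.11, 0.82, 0.04 and 0.03, and was called higher in MOLT-16 (edgeR adjusted p = 0.0099). MT-ND2 gave 0.11, 0.25, 0.60, 0.15 and -0.19, and MT-ND3 gave 0.04, 0.21, 0.16, 0.14 and 0.02, with no call. MT-ND4L, which shares an mRNA with MT-ND4, gave 0.11, 0.21, 0.17, 0.12 and -0.01, while MT-ND4 gave 0.08, 0.18, 0.24, 0.27 and 0.67 and was called higher in PER-117 (edgeR adjusted p = 0.00807). MT-ND5 gave 0.37, 0.49, 0.61, 0.16 and 0.48, above 0 in all 5 lines but called in none. The SE of these values was 0.13 to 0.18. The MT-ND1, MOLT-16, gene strand call was lost without decitabine replicate 3 or DMSO replicate 1, with both strands counted together (adjusted p = 0.162, a change of 0.42) and when MOLT-16 was fitted alone (adjusted p = 0.173). Without the 3 libraries holding transcripts of another line the change was 0.99 (edgeR adjusted p = 0.000101).

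For complex IV, the cytochrome c oxidase, MT-CO1 gave 0.11, 0.45, 0.92, 0.24 and 0.46 and was called higher in MOLT-16 (edgeR adjusted p = 0.00089; 0.74 and adjusted p = 0.000452 without the 3 libraries; adjusted p = 0.115 when MOLT-16 was fitted alone). MT-CO2 gave -0.22, 0.04, 0.41, 0.19 and 0.47 and was called higher in PER-117 (edgeR adjusted p = 0.0196), a call lost without PER-117 decitabine replicate 1 or 2 or DMSO replicate 1 or 3 (adjusted p up to 0.0944). MT-CO3, the mitochondrial gene with the most reads (3360598), gave -0.27, 0.04, 0.16, 0.06 and 0.30, with no call. The ATP synthase mRNAs were not called in any line: MT-ATP6 gave -0.39, 0.07, 0.16, -0.05 and 0.40, and MT-ATP8 gave 0.07, 0.44, 0.42, -0.64 and -0.02. The reading frames of MT-ATP8 and MT-ATP6 overlap, as do those of MT-ND4L and MT-ND4, and reads in an overlap are dropped by the counting, so the values of these 4 genes are uncertain. MT-ATP6 and MT-CO3 share a base (chrM:9207), as do MT-TC and MT-TY (chrM:5826). Reads that cross into an adjoining gene of the same strand are dropped as well. This concerns many tRNA genes, among them MT-TV and MT-TE. With both strands counted together, the calls for MT-CYB and MT-ND4 in PER-117 were lost (edgeR adjusted p = 0.103 and 0.0765).

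The rRNAs moved in opposite directions in different lines. MT-RNR1, the RNA of the small mitochondrial ribosomal subunit, was called higher in PEER (0.44 ± 0.13) and TALL-1 (0.40 ± 0.13) and lower in Loucy (-0.65 ± 0.13) and PER-117 (-0.47 ± 0.13), with 0.31 ± 0.13 and no call in MOLT-16. MT-RNR2, that of the large subunit, was called higher in PEER (0.68 ± 0.14) and lower in Loucy (-0.62 ± 0.14), and gave 0.06, 0.37 and 0.25 in TALL-1, MOLT-16 and PER-117. The responses differed between lines for both (edgeR adjusted p = 6.88e-05 and 0.000464). In Loucy MT-RNR2 stood at 10550, 10050 and 12170 CPM with DMSO and 7260, 7725 and 6326 CPM with decitabine, and in PEER at 2572, 3336 and 2705 CPM, then 5121, 4286 and 4344 CPM. Neither pair of groups overlapped, and both calls held without any single library of the line.

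As a share of heavy-strand gene reads, the rRNAs went from 6.35% to 7.67% with DMSO to 10.7% to 12.5% with decitabine in PEER, and from 32.3% to 33.5% to 22.3% to 24.0% in Loucy. In PER-117 they went from 23.6% to 24.5% to 20.4% to 21.5%, without overlap. In TALL-1 and MOLT-16 the groups overlapped on this share. Of all gene reads, the rRNAs took 1.06% ± 0.07 with DMSO and 1.15% ± 0.07 with decitabine in PER-117 (SD, n = 3), with overlap. In Loucy that share fell from 1.40% ± 0.16 to 0.98% ± 0.10, without overlap. It rose without overlap in PEER, TALL-1 and MOLT-16. The MT-RNR1 call in PEER (adjusted p = 0.0465) was lost without any 1 of the 6 libraries of the line, that in TALL-1 (adjusted p = 0.0361) without decitabine replicate 1 or 2 or DMSO replicate 1 or 3 (0.29, adjusted p = 0.151 without the 3 libraries named above), and that in PER-117 (adjusted p = 0.0145) without decitabine replicate 2 or DMSO replicate 2.

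**Figure D5:**
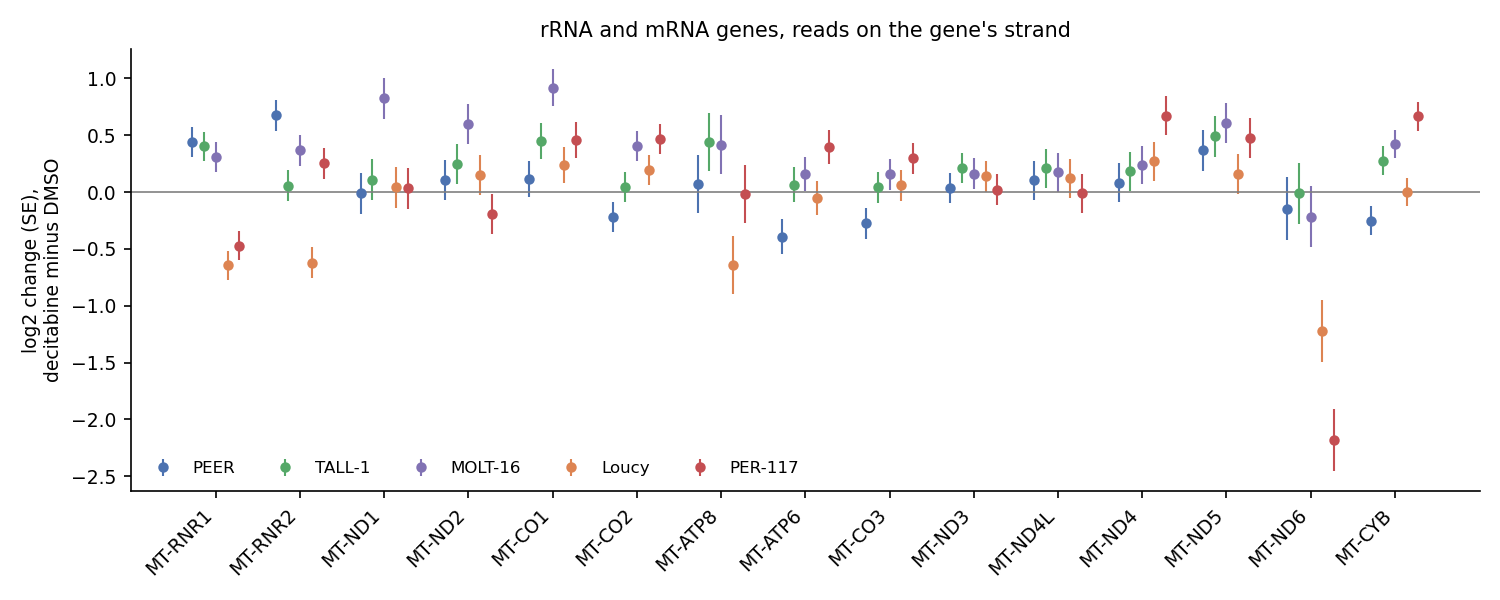
Log2 change with decitabine (points, with SE bars) of the 2 rRNA and 13 mRNA genes on their own strand, in order along the chromosome, in each line. MT-ND6 in PER-117, at -2.18, lies far below all other points, and the rRNA genes lie above 0 in PEER and below 0 in Loucy.

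Of the 7 light-strand tRNA genes tested, 5 fell in PER-117 and 2 in Loucy, beside MT-ND6. Over all genes, 3.16% were called lower in PER-117 and 4.13% in Loucy. In PER-117 MT-TE stood at 20.3, 13.2 and 19.1 CPM with DMSO and at 6.94, 3.97 and 5.25 CPM with decitabine (-1.69 ± 0.28, edgeR adjusted p = 0.000113). In Loucy it stood at 4.86, 3.56 and 4.09 CPM, then 1.96, 2.53 and 2.97 CPM, without overlap but not called (-0.75 ± 0.31, adjusted p = 0.105). The levels were 3.46, 2.10 and 5.98 CPM, then 6.25, 6.99 and 2.54 CPM in PEER. They were 13.7, 17.4 and 9.83 CPM, then 9.64, 10.2 and 12.98 CPM in TALL-1, and 4.08, 6.54 and 5.53 CPM, then 5.67, 5.86 and 7.49 CPM in MOLT-16, with overlap in the 3 lines. The responses of the lines differed (edgeR adjusted p = 0.00567).

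The other light-strand tRNA genes called lower in PER-117 were MT-TP (-1.69 ± 0.34, from 250.5 to 77.7 CPM), MT-TS1, the tRNA for serine (UCN) (-1.60 ± 0.48), MT-TC (-1.55 ± 0.31) and MT-TY (-1.27 ± 0.27). MT-TC and MT-TY were called lower in Loucy too (-1.02 ± 0.30 and -0.87 ± 0.26), each lost without any 1 of 3 single libraries of the line. The remaining light-strand tRNA genes tested, MT-TQ (glutamine) and MT-TA (alanine), gave -0.56 ± 0.33 and -0.88 ± 0.37 in PER-117 and -0.72 ± 0.32 and -0.64 ± 0.36 in Loucy, with no call. MT-TS1 had 95 reads in the 3 untreated PER-117 libraries and 39 in the treated ones, and its call was lost without 5 of the 6 libraries. In PEER, TALL-1 and MOLT-16 the 7 light-strand tRNA genes tested gave log2 changes of -0.57 to 0.58, none called. With both strands counted together, the calls for MT-TC and MT-TY were lost in both lines. A tRNA has no poly(A) tail in mature form, and reads over these genes are few for most of them, so the counts describe primed RNA that ends or passes there.

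Of the heavy-strand tRNA genes, 2 were called higher in TALL-1 and 1 was called lower in PER-117. Over all genes, 6.74% were called higher in TALL-1 and 3.16% lower in PER-117. MT-TV in TALL-1 stood at 6.86, 6.63 and 4.29 CPM with DMSO and at 20.2, 31.7 and 28.6 CPM with decitabine. The log2 change was 2.19 ± 0.33 (edgeR adjusted p = 4.16e-05), and 1.99 without the 3 libraries. The call held without any single library of the line. It rested on 83 and 375 reads. In PEER MT-TV stood at 2.04, 2.67 and 2.89 CPM, then 2.72, 3.11 and 2.22 CPM. In MOLT-16 it stood at 10.7, 17.8 and 4.90 CPM, then 6.65, 7.82 and 5.91 CPM, and in Loucy at 2.23, 2.68 and 2.32 CPM, then 1.89, 3.73 and 3.05 CPM. In PER-117 it stood at 4.02, 2.71 and 6.25 CPM, then 3.55, 3.88 and 4.79 CPM, so that the groups were apart in TALL-1 and overlapped in the other 4 lines.

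MT-TL1, the tRNA for leucine (UUR), was called higher in TALL-1 as well (1.26 ± 0.38, edgeR adjusted p = 0.026, from 105.5 to 251 CPM), a call lost without each of 5 single libraries. MT-TM, the tRNA for methionine, was called lower in PER-117 (-1.07 ± 0.28, adjusted p = 0.0102), lost without decitabine replicate 2 or DMSO replicate 3. The other heavy-strand tRNA genes tested on the gene strand (MT-TF, MT-TI, MT-TD, MT-TS2, MT-TL2 and MT-TT) were not called in any line. In the order of lines given above, MT-TF gave 0.41, 0.50, -0.24, 0.02 and -0.25 on the log2 scale, MT-TI 0.60, 0.60, 0.03, 0.20 and -0.21, and MT-TD 0.39, 0.14, 0.63, -0.14 and 0.64. MT-TS2 gave -0.30, 0.79, -0.36, -0.90 and -0.99, MT-TL2 0.45, 1.08, 1.09, -0.01 and -1.10, and MT-TT -0.28, 0.34, 0.17, -0.25 and 0.07. In TALL-1 all 23 heavy-strand genes tested had a log2 change above 0, with a median of 0.34. MT-TL2 had 336 reads over all libraries, while MT-TF, the tRNA for phenylalanine, had 40417. On the opposite strand, MT-TW and MT-TH were tested with 1452 and 564 reads and not called.

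The 6 genes under the filter on the gene strand were all tRNA genes. MT-TW (tryptophan) had 45 gene-strand reads in all, MT-TH (histidine) 71, MT-TR (arginine) 63 and MT-TG (glycine) 7, while MT-TK (lysine) and MT-TN (asparagine) had 0. Short genes that touch a gene of the other strand share reads with it. MT-TI and MT-TQ overlap by their ends, and 78.0% of the reads over MT-TI and all of those over MT-TQ also touched a gene of the other strand. Of the reads over MT-TE 96.9% did so, over MT-ND6 19.0% and over MT-ND5 4.81%.

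Untreated lines differed in every mitochondrial gene tested, 31 of 31 on the gene strand and 28 of 28 on the opposite strand, where 91.6% and 83.4% of all features differed as well. MT-ND6 stood at 698.5 ± 69.3 CPM in PER-117 (SD, n = 3), 183 ± 40.02 in TALL-1, 174 ± 56.3 in MOLT-16, 78.2 ± 30.4 in Loucy and 73.8 ± 16.8 in PEER. PER-117 stood apart from the next line, while TALL-1 and MOLT-16, and Loucy and PEER, did not differ beyond their spread. With decitabine MT-ND6 in PER-117 stood at 154 ± 14.04 CPM, within the range of untreated TALL-1 and MOLT-16 libraries. The opposite strand over MT-ND5 had a like order at its top, 2145 ± 154 CPM in PER-117, then 558.5 ± 158 in MOLT-16, 508 ± 37.6 in TALL-1, 349 ± 81.0 in Loucy and 167 ± 20.2 in PEER.

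MT-TC was set apart in TALL-1, with 424, 494 and 264 CPM in the untreated libraries against 10.4 to 42.1 CPM in the untreated libraries of the other 4 lines. MT-RNR2 was lowest in PEER, at 2871 ± 408 CPM (SD, n = 3), against means of 8363 to 11500 CPM in the other untreated lines. Levels are compared between lines and not between genes, since the kit counts primed ends and a gene's reads do not grow with its length.

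The responses of the 5 lines differed for 9 of 31 mitochondrial genes on the gene strand and 11 of 28 on the opposite strand, against 13.6% and 3.77% of all features. The 9 were MT-ND6, MT-TE, MT-TP, MT-TC, MT-TM, MT-TV, MT-CYB and both rRNA genes. The 11 were the heavy-strand mRNA genes other than MT-ATP8. With the 5 lines as replicates, 0 of 31 genes were called (edgeR quasi-likelihood test, 0.0578% of all genes called), and 5 passed an unadjusted p under 0.05: MT-ND5, MT-CO1, MT-ND4 and MT-TL1, higher by 0.45, 0.45, 0.29 and 0.45 on the log2 scale, and MT-TY, at -0.61. The smallest edgeR adjusted p was 0.073, for MT-ND5. How many of all genes passed the unadjusted threshold was not computed.

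Nuclear genes of mitochondrial gene expression are given by list, to be read against the background calls on the gene strand (8.67% higher and 3.16% lower in PER-117, 10.6% and 4.13% in Loucy, 6.74% and 6.12% in TALL-1, 2.19% and 1.01% in MOLT-16). Of 14 genes of mitochondrial transcription, 1 rose in TALL-1, 1 fell in Loucy and 1 fell in PER-117, and 0 were called in PEER and MOLT-16. POLRMT was not called in any line, with log2 changes from -0.27 ± 0.17 in PER-117 to 0.16 ± 0.19 in TALL-1. TFAM, which packs mitochondrial DNA and opens its promoters, gave -0.43 ± 0.21 in Loucy (edgeR adjusted p = 0.192) and -0.25 ± 0.21 in PER-117 (adjusted p = 0.543), and TEFM, the elongation factor, -0.45 ± 0.25 in PEER and 0.05 ± 0.23 in PER-117. MTERF1, which binds mitochondrial DNA, rose in TALL-1 (0.96 ± 0.30, from 5.29 to 10.7 CPM), and NRF1, a nuclear transcription factor of mitochondrial genes, fell in Loucy (-0.55 ± 0.16). The gene that fell in PER-117 was PPRC1, a coactivator of NRF1 (-0.56 ± 0.19). The median change of the list was -0.16 in PER-117 and -0.19 in Loucy, against 0.05 and 0.03 over all genes. It was lowest in PEER, at -0.26 against -0.02 over all genes, and was -0.05 in TALL-1 and 0.009 in MOLT-16.

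Of 27 genes of mitochondrial RNA processing and decay, 5 fell in PER-117, 1 in TALL-1 and 1 in Loucy, and 0 rose in any line. Over all genes 3.16% fell in PER-117. The median log2 change of the list was -0.27 in PER-117, against 0.05 over all genes. It was -0.26 in PEER, -0.17 in Loucy, -0.16 in TALL-1 and -0.08 in MOLT-16. Over all genes these lines gave -0.02, 0.03, -0.0008 and -0.01, in that order. The 5 genes called lower in PER-117 were DHX30, DDX28, TBRG4, FASTKD2 and PNPT1. The RNA helicase DHX30 fell there from 144 ± 6.49 to 87.2 ± 3.04 CPM (-0.72 ± 0.14, edgeR adjusted p = 0.000451), and PNPT1, of the degradosome, fell from 65.3 ± 5.13 to 47.6 ± 4.12 CPM (-0.45 ± 0.15, adjusted p = 0.045). SUPV3L1, its helicase, stood at 17.0 ± 1.92 CPM with DMSO and 12.9 ± 0.43 CPM with decitabine in PER-117 without a call (adjusted p = 0.247). LRPPRC, which stabilises the heavy-strand mRNAs, fell in TALL-1 (-0.50 ± 0.11, adjusted p = 0.00306) and in Loucy (-0.34 ± 0.11, adjusted p = 0.0308), and gave -0.25, -0.21 and -0.14 in PEER, MOLT-16 and PER-117.

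Of 19 measured genes of mitochondrial DNA maintenance, 2 rose and 2 fell in PER-117, 1 rose and 1 fell in Loucy, and 1 fell in each of TALL-1 and MOLT-16. The background in PER-117 was 8.67% higher and 3.16% lower. RRM2B, a ribonucleotide reductase subunit and known p53 target, rose in PER-117 from 9.51 to 19.2 CPM (1.01 ± 0.18, edgeR adjusted p = 0.000321), and the exonuclease MGME1 from 32.3 to 51.8 CPM (0.68 ± 0.15, adjusted p = 0.00191). The 2 that fell in PER-117 were TWNK, the mitochondrial DNA helicase, from 44.6 to 29.4 CPM (-0.60 ± 0.14, adjusted p = 0.00345), and RNASEH1, which cuts RNA in RNA-DNA hybrids, from 85.01 to 64.97 CPM (-0.39 ± 0.13, adjusted p = 0.0491). TK2, the mitochondrial thymidine kinase, rose in Loucy from 8.07 to 18.9 CPM (1.22 ± 0.20, adjusted p = 7.76e-05), where LIG3, a DNA ligase, fell (-0.46 ± 0.13, adjusted p = 0.014). The topoisomerase TOP3A fell in TALL-1 (-0.54 ± 0.16, adjusted p = 0.0258), and the protease LONP1 fell in MOLT-16 (-1.04 ± 0.26, adjusted p = 0.02) from 158 ± 70.7 to 77.1 ± 10.6 CPM, with overlapping groups.

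Nuclear copies of mitochondrial genes could take reads from them. There were 401 such annotated copies, 88 of them with gene-strand reads, and together they held 36289 reads against 11293506 on the mitochondrial genes. The 5 with the most reads were MTATP6P1 (15805), MTCO2P12 (3449), MTRNR2L12 (2798), MTND6P4 (2669) and MTCO1P40 (2571). MTND6P4, a copy of MT-ND6 on chromosome 5, fell in PER-117 by 1.92 ± 0.27 on the log2 scale (edgeR adjusted p = 8.73e-06) as MT-ND6 itself did, and gave -1.09 ± 0.86 in Loucy (adjusted p = 0.448). MTATP6P1 rose in MOLT-16 (0.92 ± 0.21, adjusted p = 0.0135). None of the other 13 copies that passed the filter was called in any line.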

How the data were processed

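Per the labels' protocols, RNA was extracted with a column kit and sequenced with a stranded 3′ kit. The deposited counts are whole reads per gene that the authors produced with STAR 2.4.2a on GRCh38 (hg38), per the submitters' processing notes, which also name DESeq2, with an annotation release not given in the sources used here. Each file gives unstranded, gene-strand and opposite-strand counts. A read over 2 genes of the same strand is dropped as ambiguous, which lowers counts where genes overlap or adjoin. Symbols came from GENCODE 29: 56996 of 60554 identifiers matched. The files' names and sample titles exchange PEER DMSO replicates 2 and 3, and titles were used.

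Counts were fitted with edgeR 4.0.16 (quasi-likelihood, TMM scaling, filterByExpr with a minimum count of 10, R 4.3.3, limma 3.58.1), with 10 group means over all 30 libraries and 20 residual degrees of freedom. Opposite-strand counts used the gene-strand library sizes. The ratio was fitted on both counts of each library with a term per library. P-values were adjusted by Benjamini-Hochberg over all features of a comparison, and an adjusted p under 0.05 is a call. Each SE is the log2 change divided by the root of its F statistic. CPM use the scaled library sizes. Alternatives were DESeq2 1.42.0, its size factors, no filter, other scalings, unstranded counts, a replicate block, 1 line at a time, and leaving out libraries. The calculation was tested on simulated data. Same-numbered PER-117 libraries deviated together (correlations 0.148, 0.202 and 0.313, from the data and not the labels). The main fits held no term for pairs in any line, so the p-values given for PER-117 are unpaired. The replicate block, an alternative, held such terms in every line. No library pair of a group agreed within sampling noise (30 pairs, lowest chi-square over degrees of freedom 2.13). Transcripts of another line were looked for with genes at 10 CPM or more in their own line and 1 CPM or less in the decitabine libraries of the others.

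Named were all 37 genes, with values in every library for MT-ND6, the 4 genes with the smallest adjusted p on the gene strand and the 3 with the most opposite-strand reads, at most 3 called nuclear genes per line beside 6 fixed ones, and the 5 nuclear copies with the most reads. PPRC1, DDX28, TBRG4, FASTKD2, TWNK and RNASEH1 are named outside that rule, chosen after their values were seen, to complete counts of 5 or fewer. Genes, lists and tests were chosen with earlier results of these data known.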

Additional observations from a re-analysis of the deposited data

Results flagged for a closer look

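The response to decitabine differed between the 5 lines for 20 measures of mitochondrial RNA, by a test of the difference itself (edgeR quasi-likelihood, 4 degrees of freedom, adjusted over all features). On the gene strand, the adjusted p was 6.88e-05 for MT-RNR1 and 0.000464 for MT-RNR2, whose changes had opposite signs in PEER and Loucy. It was 0.000533 for MT-ND6, 0.00567 for MT-TE, 0.0139 for MT-TC and 0.0481 for MT-TP, which had their lowest log2 changes in PER-117. It was 0.00431 for MT-CYB, 0.0191 for MT-TM and 0.00137 for MT-TV.

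On the opposite strand, the edgeR adjusted p of the difference was 1.58e-06 for MT-CYB, 1.77e-05 for MT-ND4 and 2.46e-05 for MT-ND5. It was 0.000365 for MT-CO1, 0.000474 for MT-ATP6, 0.0012 for MT-ND4L and 0.00123 for MT-ND1. It was 0.0126 for MT-CO3, 0.0274 for MT-ND2, 0.0398 for MT-CO2 and 0.0472 for MT-ND3. Each of these 11 had its lowest log2 change in PER-117.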

How the results depend on the processing

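Counts below are mitochondrial genes called in edgeR unless DESeq2 is named. On the gene strand the 2 in PEER became 1 with a replicate block and 1 when the line was fitted alone. The 3 in TALL-1 became 6 without the filter, 6 with the block and 7 alone. The 2 in MOLT-16 became 6 in DESeq2, 4 without the filter, 1 with unstranded counts, 5 with the block, 5 without the 3 libraries holding transcripts of another line, and 0 alone. The 5 in Loucy became 8 without the filter, and the 11 in PER-117 became 6 with unstranded counts and 18 alone. On the opposite strand the 1 in PEER became 0 without the filter, with its own scaling or without the 3 libraries, and the 0 in MOLT-16 became 1 in DESeq2, with its own scaling or without the 3 libraries. For the ratio, the 0 became 1 in PEER, 1 in TALL-1 and 2 in MOLT-16 with the replicate block, and 1 in PEER and 2 in MOLT-16 without the 3 libraries. Genes whose response differed on the gene strand went from 9 to 17 without the filter. The causes were not tested.

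Leaving out 1 library gave, on the gene strand, 1 to 3 in PEER, 1 to 7 in TALL-1, 1 to 6 in MOLT-16, 3 to 6 in Loucy (3 without decitabine replicate 1 or DMSO replicate 2) and 7 to 15 in PER-117 (7 without decitabine replicate 2). On the opposite strand it gave 0 to 1 in PEER, 0 in TALL-1, 0 to 1 in MOLT-16, 4 to 14 in Loucy and 13 to 16 in PER-117. For the ratio it gave 0 to 1 in PEER, TALL-1 and MOLT-16, 8 to 15 in Loucy and 17 to 18 in PER-117. Genes whose response differed numbered 7 to 13 on each strand, with 7 on the opposite strand without PER-117 decitabine replicate 2 or DMSO replicate 1. Of the alternatives tried for single called genes and for MT-ND6, 850 kept their direction and side of the threshold, 136 lost the call and 0 reversed a call.

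Same-numbered libraries correlated at -0.24 to 0.31 over 15 pairs, 5 of them over 0.1, and 8 pairs matched best with their own number. All 3 PER-117 pairs were over 0.1 and best with their own number, so that line may be paired, which the main fits left out. With the replicate block, which paired every line, the PER-117 counts went from 11 to 12 on the gene strand. They went from 15 to 17 on the opposite strand and from 18 to 18 for the ratio. No mitochondrial gene called in PER-117 lost its call. In the other lines the samples share only a number. Depth limits the tRNA genes most, and the 3′ kit counts primed ends, not transcription.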
